A study of Mus musculus with 2 samples.

Results

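The genes described here are those of the mitochondrial route to cell death: the apoptosome scaffold Apaf1 and 8 members of the Bcl2 family, namely Bcl2, Bcl2l1, Mcl1, Bax, Bak1, Bcl2l11, Bbc3 and Pmaip1. A probe set (a group of short probes that read 1 transcript) was included if the array's annotation assigned it to exactly 1 of these genes. That rule gave 26 probe sets for 8 of the 9 genes. On the array 34945 probe sets were assigned to exactly 1 gene, for 18193 genes. Bax was not analysed here, because no probe set was assigned to it alone.

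Signals came from 2 Affymetrix expression arrays of C57BL/6 mouse uterine epithelial cells collected on pregnancy day 4, when the uterus becomes receptive to the embryo. The null array held RNA of Msx1Msx2-null mice, in which floxed alleles of the homeobox transcription factors Msx1 and Msx2 were removed by PRcre. This Cre recombinase is expressed from the progesterone receptor locus, and that receptor is known from the stroma and muscle of the uterus as well as its epithelium. The control array held RNA of Msx1Msx2 floxed control mice, and the labels do not say whether those mice carried the recombinase. The labels name 5 mice of each genotype in 1 place and stromal cells of 4 in another, give no age, and do not say whether RNA was pooled. With 1 array per genotype nothing could be tested against replicates, so every value below describes this pair of arrays.

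In the mitochondrial pathway, Bcl2, Bcl2l1 (Bcl-xL) and Mcl1 keep the outer mitochondrial membrane intact, whereas Bax and Bak1 form the pores that break it. The BH3-only proteins Bcl2l11 (Bim), Bbc3 (Puma) and Pmaip1 (Noxa) sense stress and tip the balance towards the pore formers. Cytochrome c that leaks out binds Apaf1, which assembles into the apoptosome and activates caspase-9. The luminal epithelium of the mouse uterus dies around the attached embryo as implantation proceeds, after the day sampled here.

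The labels were checked first. Signals are given as control and then null throughout. Msx1 read 3474 and 42.3 at 1 probe set and 1658 and 28.1 at the other, and the brighter Msx2 probe set read 63.4 and 23.6; which exons were removed is not stated. The signal floor, the 50th percentile of all non-control signals, was 21.1, and values under it were set to it. On the control array 50.4% of signals reached the floor and on the null array 49.6%. RNA integrity, read as the 3' to 5' signal ratio of Actb, was 1.62 and 1.56. Of 13 measured epithelial markers none reached 2-fold in either direction, with a median log2 difference (null minus control) of -0.04 and a summed signal of 44942 and 47719. Krt8, Krt18, Epcam and Cdh1, which define epithelium, all read 3124 or more on both arrays. The stromal gene Dcn was bright as well, at 4213 and 3877.

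Promoter sequence is shown for 3 members: Apaf1 and Bcl2, the genes with probe sets past 2-fold, and Mcl1, whose probe sets differed least as a group. The windows are the 250 bases before the annotated start, from RefSeq (GRCm38.p6), 5' to 3' on the gene's strand. Capitals mark the GC box, the letters GGGCGG or their reverse complement CCGCCC, which the factor Sp1 is known to bind. Apaf1 lies on the minus strand at chr10:91082744-91082993, Bcl2 on the minus strand at chr1:106714291-106714540, and Mcl1 on the plus strand at chr3:95658471-95658720.
Apaf1: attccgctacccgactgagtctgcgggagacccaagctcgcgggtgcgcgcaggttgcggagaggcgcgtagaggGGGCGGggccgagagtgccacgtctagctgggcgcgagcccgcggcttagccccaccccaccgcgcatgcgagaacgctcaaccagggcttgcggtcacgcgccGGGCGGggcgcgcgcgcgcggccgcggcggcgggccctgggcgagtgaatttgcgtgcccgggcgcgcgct
Bcl2: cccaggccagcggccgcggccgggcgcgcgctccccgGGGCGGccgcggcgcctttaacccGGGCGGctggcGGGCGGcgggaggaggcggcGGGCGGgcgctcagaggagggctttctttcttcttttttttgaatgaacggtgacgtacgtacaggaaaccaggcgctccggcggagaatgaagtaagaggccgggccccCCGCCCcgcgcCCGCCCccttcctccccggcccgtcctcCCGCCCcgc
Mcl1: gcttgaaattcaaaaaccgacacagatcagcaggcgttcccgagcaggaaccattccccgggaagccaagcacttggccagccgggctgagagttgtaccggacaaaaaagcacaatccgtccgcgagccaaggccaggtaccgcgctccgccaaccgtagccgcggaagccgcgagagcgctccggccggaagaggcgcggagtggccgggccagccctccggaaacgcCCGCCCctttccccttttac

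The Apaf1 window held 2 GC boxes, the Bcl2 window 7 and the Mcl1 window 1. The member windows searched were 13, for 8 of the 9 members. Windows on 1 chromosome were left out of the member search but kept among all windows. None of the 13 was of Pmaip1, so the member counts do not cover it. Several were alternative or overlapping starts of 1 gene. Of the 13, 9 had a GC box, against 32.7% of all 32851 windows in the table. The GC content of the windows was 75.6% for Apaf1, 74.8% for Bcl2 and 64.4% for Mcl1, beside a median of 52.4% over all windows. The Msx homeodomain letters TAATTG, searched on both strands, were in none of these 13 windows and in 7.17% of all windows. The STAT letters TTCNNNGAA were likewise in none of the 13, against 7.02% of all. The E2F words TTTCCCGC, TTTCGCGC, TTTGCCGC and TTTGGCGC were in 1 member window, an alternative start of Bcl2l1, and in 1.86% of all windows. The p53 half-site was in 1 window, that of Bax, and in 7.13% of all. These matches describe letters within 250 bases and say nothing of binding.

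Apaf1 was the member with the largest difference between the arrays. Its probe set 1452870_at read 70.9 and 407, a 5.74-fold excess in the null (log2 difference 2.52). Of all 20942 measured named probe sets, 0.592% were as high or higher in the null. The second Apaf1 probe set, 1450223_at, was dim. It read 9.37 in the control, below the floor, and 29.9 in the null, which gives only a bound of at least 1.41-fold higher (0.50 on the log2 scale). Both probe sets were brighter on the null array, but a bound cannot say whether they gave 1 size. The median over them, 1.51, takes the bound as a value. Across 10 other settings of scaling, floor and probe set choice, the log2 difference of Apaf1 lay between 1.51, which is that median, and 2.59.

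**Figure D1:**
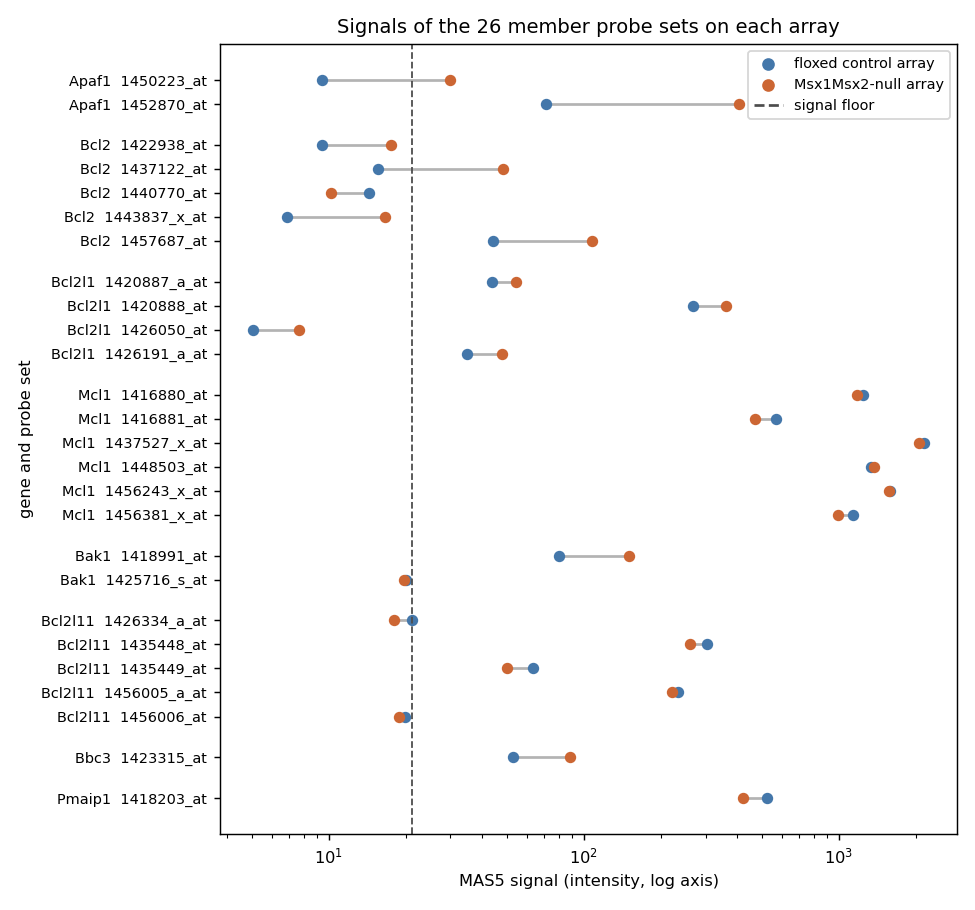
MAS5 signal (intensity, log axis) of each member probe set on the floxed control array (blue) and the Msx1Msx2-null array (orange), 1 row per probe set, with the signal floor of 21.1 dashed. The null point lies far to the right for Apaf1 1452870_at (70.9 to 407), whereas the points of Mcl1 nearly coincide.

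The anti-apoptotic genes did not differ alike. Bcl2, the founding survival gene of the family, had its clearest signal at 1457687_at, with 43.9 and 108, a 2.45-fold excess in the null (log2 1.30). Its probe set 1437122_at was below the floor in the control (15.6) and read 48.0 in the null, at least 2.27-fold higher. The other 3 Bcl2 probe sets were below the floor on both arrays and were not compared: 1422938_at read 9.43 and 17.5, 1440770_at 14.4 and 10.2, and 1443837_x_at 6.85 and 16.6. The Bcl2 signals were thus near the floor on the control array, and the call depended on the setting. With the arrays aligned on their hybridization spike-in controls, RNA added to each array at a set amount, the log2 difference of 1457687_at was 0.99, just short of 2-fold, while 1437122_at stayed past it at a bound of 1.04. The floor at the 67th percentile lies above the control signal of 1457687_at and leaves a bound of 0.57.

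Bcl2l1, which encodes the survival protein Bcl-xL, was slightly brighter in the null at each of its 3 measured probe sets. Probe set 1420888_at read 268 and 362 (1.35-fold, log2 0.43). The alternative-transcript probe sets read 34.7 and 47.7 at 1426191_a_at (log2 0.46) and 43.7 and 54.4 at 1420887_a_at (log2 0.31). None reached 2-fold. With the arrays aligned on the spike-in controls these 3 log2 differences were 0.13, 0.16 and 0.01, in the same order. The fourth, 1426050_at, read 5.05 and 7.62, below the floor on both arrays.

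Mcl1, a short-lived survival protein, was nearly level. Its 6 probe sets were all above the floor on both arrays and had log2 differences between -0.27 and 0.03, with a median of -0.07. The 3 probe sets of unique sequence read 1243 and 1175 at 1416880_at, 564 and 469 at 1416881_at, and 1340.3 and 1365 at 1448503_at. The others, which may bind related sequence, read 2152 and 2052, 1579.8 and 1570.1, and 1136 and 990.0. Of the 6, 5 were dimmer and 1 was brighter in the null. The sign of the difference turned with the setting, at 0.00 with array medians and 0.03 without probe sets of shared sequence, beside -0.07. With the arrays aligned on the spike-in controls it was -0.37, where the median of all named probe sets was -0.26.

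Of the effectors, only Bak1 could be measured. Its probe set 1418991_at read 79.9 and 150.0, a 1.88-fold excess in the null (log2 0.91), short of 2-fold. Over the 10 other settings this value ran from 0.61 to 0.98 and never reached 2-fold. The second probe set, 1425716_s_at, read 20.0 and 19.8, below the floor on both arrays. Of all measured probe sets, 7.42% were as high as Bak1 or higher in the null.

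The BH3-only genes were split. Bbc3, a direct target of p53 that encodes Puma, read 52.7 and 88.2 at its only probe set, a 1.67-fold excess (log2 0.74). The floor at the 67th percentile lies above its control signal and leaves a bound of 0.28. Bcl2l11, which encodes Bim, was dimmer in the null at each of 4 measured probe sets. Signals were 304 and 259.8 at 1435448_at (log2 -0.23), 234 and 222 at 1456005_a_at (log2 -0.07), and 63.4 and 49.7 at 1435449_at (log2 -0.35). The fourth, 1426334_a_at, lay at the floor, at 21.3 and 18.0, and 1456006_at was below it on both arrays. Pmaip1, which encodes Noxa, a partner of Mcl1, had 1 probe set with 520.3 and 420.4 (1.24-fold dimmer in the null, log2 -0.31). None of the BH3-only probe sets reached 2-fold.

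**Figure D2:**
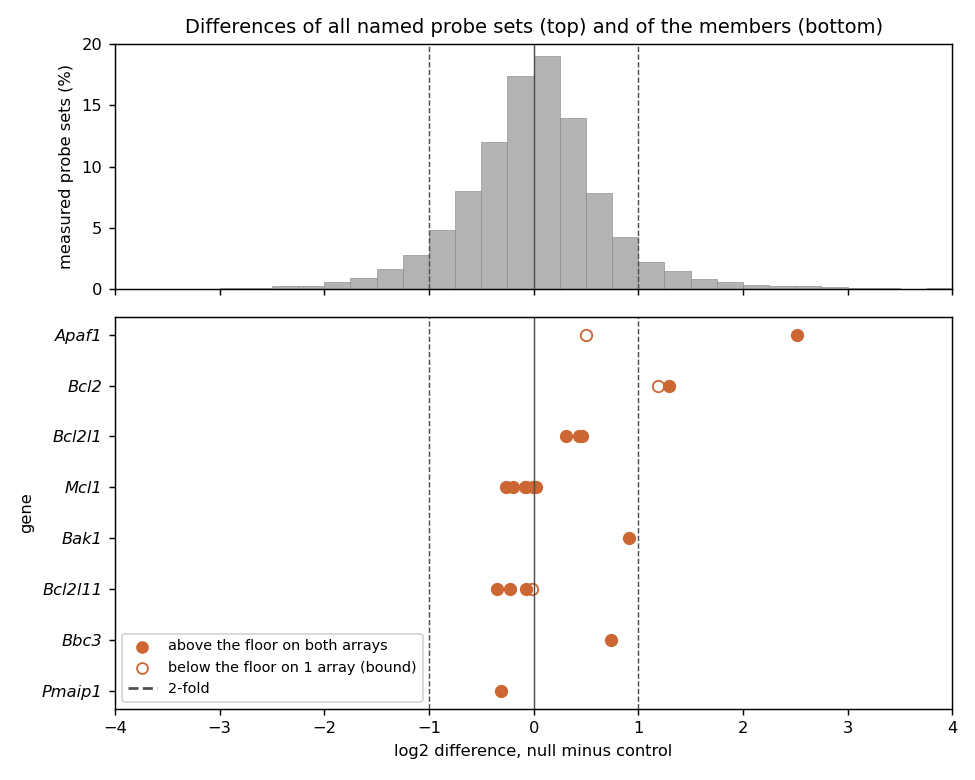
Top, share (%) of all measured named probe sets by log2 difference, null minus control, in bins of 0.25, shown from -4 to 4. Bottom, the 20 measured member probe sets by gene, open where 1 array was below the floor. Apaf1 and Bcl2 alone have points to the right of the 2-fold line.

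Over the 26 member probe sets, 17 were above the floor on both arrays, 3 on 1 array and 6 on neither. Of the 20 measured, 3 (15.0%) were 2-fold or more above the control in the null, 1 of Apaf1 and 2 of Bcl2, and none was 2-fold or more below it. Over all measured named probe sets the corresponding shares were 6.25% and 6.49%. The members' count rests on few probe sets, 2 of them of 1 gene, and was 1 with the floor at the 67th percentile. Read by gene at the brightest probe set, 2 of 8 members passed 2-fold upwards and 0 downwards, beside 7.73% and 4.75% of all 11662 measured genes. The direction was even, with 10 probe sets higher and 10 lower in the null. The median log2 difference was 0.01, beside 0.02 over all measured probe sets. Without the probe sets of shared or alternative sequence, among them 3 of Mcl1, it was 0.43. Mcl1 and Bcl2l11 together supplied 10 of the 20 values. Aligning the arrays on their spike-in controls moved the median of all named probe sets from 0.02 to -0.26.

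Probe sets of 1 gene gave closely similar differences for the members with several of them above the floor. The standard deviation of the log2 difference was 0.08 for the 3 probe sets of Bcl2l1, 0.11 for the 6 of Mcl1 and 0.14 for the 3 of Bcl2l11. Over all 4645 genes with several such probe sets it was 0.38, and 0.42, 0.39 and 0.34 from the dimmest to the brightest of 3 signal ranges. This spread is among probe sets that read the same pair of RNA samples. It holds nothing of the spread between mice, so it cannot say which member differences stand out between the genotypes.

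**Figure D3:**
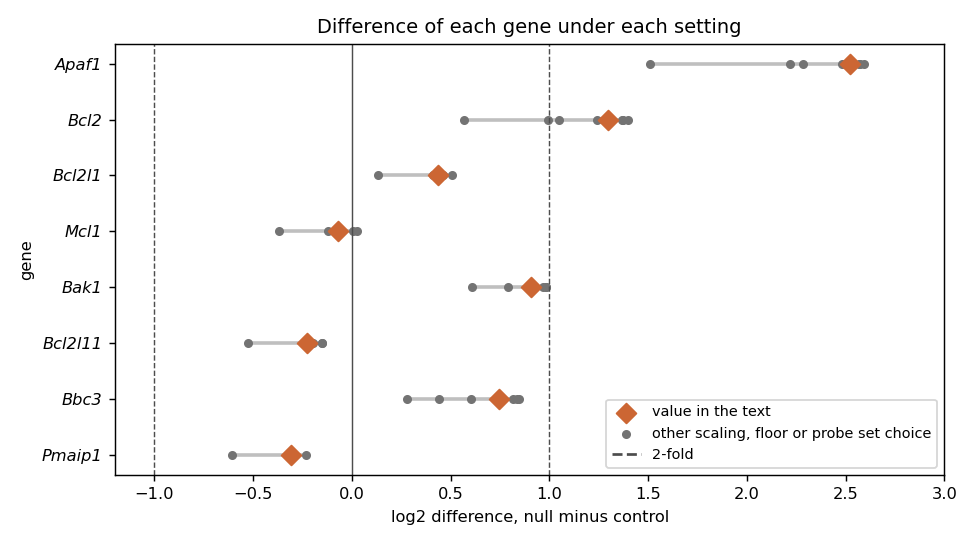
Log2 difference, null minus control, of each member gene: orange diamonds show the value in the text from the brightest probe set, grey points the same gene under each of 10 other settings. Apaf1 stays to the right of the 2-fold line (dashed) in all of them and Bcl2 in 8, and no other member crosses it.

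Markers of other cell types differed between the same arrays. Of 7 measured smooth muscle markers 5 exceeded 2-fold in the null, with a median of 1.12 and a summed signal over 8 genes of 454 and 1091. Of the 5, Myh11, Cnn1 and Actg2 were below the floor in the control, so their values and the median are bounds. Des (log2 -0.40) and Synpo2 (log2 -0.12) were lower in the null. Lmod1 was below the floor on both arrays. Macrophage markers had 2 of 9 at least 2-fold higher and a median of 0.71. Their sums, 5372 and 5954, were mostly Cd14, which was slightly lower in the null, at 4260 and 4086. Stromal markers had none of 11 at least 2-fold higher and a median of 0.55, with sums of 10061 and 12725, Pdgfrb being below the floor. Of T and NK cell markers, 1 of 4 measured, Cd3g, was at least 2-fold higher, by a bound. The list summed to 124 and 176, Cd2 and Ncr1 being below the floor on both arrays. Glandular markers went both ways, 2 of 5 measured being higher and 2 lower (median 1.00), and mesothelial markers were lower, 1 of 6 past 2-fold (median -0.60). The glandular median (Prss29), the lower glandular gene Spink1 and the mesothelial gene past 2-fold, Muc16, are bounds. Past 2-fold upwards were also 1 of 7 endothelial (median 0.21) and 1 of 5 B and plasma cell markers (median 0.32, a bound). Of 5 neutrophil markers 1 was measured, at a bound of 0.16. The B and plasma cell marker past 2-fold was Jchain, the antibody joining chain, at 71.5 and 978. On the same list Xbp1 read 1593 and 1762, Ighm 33.5 and 42.8, and Mzb1 was lower in the null, at 63.5 and 54.0. The list summed to 1788 and 2866, while the B cell genes Cd79a and Ms4a1 were below the floor on both arrays. Bcl2 is well known from lymphocytes, and the part of these cells in the signals of Bcl2 and Apaf1 was not tested. More cells of a type and more RNA per cell cannot be told apart in such samples.

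The rest of the cell death machinery was read with 1 probe set per gene, the brightest. Of 115 genes on 10 lists, 99 had a probe set of their own and 90 were measured. At least 2-fold higher in the null were 7 (7.78%) and at least 2-fold lower 3 (3.33%), beside the same 7.73% and 4.75% of all measured genes, so these shares were near the background. The balance of higher and lower depended on the setting: it was 4 and 9 with the arrays aligned on the spike-in controls, and 4 and 4 when probe sets of shared or alternative sequence were left out. The median log2 difference was 0.19, beside 0.08 over all genes.

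Bcl2l15, a family member with limited similarity to Bcl2, had the largest difference of the other Bcl2 family genes. It read 265 and 1758 at its only probe set, a 6.63-fold excess in the null. The other effector-like and multi-domain genes were within 2-fold, with Bok at 0.54, Bcl2l14 at 0.40 and Bcl2l13 at 0.24. On the list of further anti-apoptotic genes 2 of 7 were measured, Bcl2l2 (Bcl-w) at 0.53 and Bcl2l12 at -0.43, and none reached 2-fold. Of 6 measured BH3-only and BH3-like genes none reached 2-fold, and the median was -0.02. Bik was lower, from 192 to 103 (log2 -0.90), with its 3 probe sets between -1.33 and -0.90, while Bmf was higher, from 107 to 195 (log2 0.86), and Becn1, an autophagy gene, stood at -0.77.

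Downstream of the mitochondria the differences were small. All 9 measured genes for apoptosome cofactors and mitochondrial proteins were brighter in the null, and none reached 2-fold (median 0.28). Cycs, which encodes cytochrome c, read 1219.7 and 1652 (log2 0.44), Aifm1 679 and 949 (log2 0.48) and the channel gene Vdac1 2268 and 3111 (log2 0.46). With the arrays aligned on the spike-in controls the list median was -0.02. Of 10 measured genes for caspases and their nuclease none reached 2-fold, with a median of -0.23. Casp9, the caspase that Apaf1 activates, read 179 and 211 (log2 0.24), and was chosen after its values were seen. Casp12 was at 0.88, the inflammatory caspase gene Casp4 at -0.87 and Dffa, the inhibitor of the nuclease, at -0.54. Trp53, which encodes p53, was not analysed here.

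Among 8 measured inhibitor of apoptosis genes, 1 was higher and 1 lower by at least 2-fold, with a median of -0.27. Birc5 (survivin), which also serves in chromosome segregation, read 71.3 and 526 (7.38-fold higher). Naip6 read 1579 and 753 (2.10-fold lower), and its probe set may bind the closely similar Naip paralogs. Xiap, which blocks caspases directly, stood at -0.64, with its 4 probe sets between -0.72 and 0.72. Naip2 stood at 0.49 and Birc2 at -0.44. Of 11 measured death receptors and adaptors 1 was higher and 1 lower, with a median of -0.11. Tnfrsf12a, the receptor of the ligand TWEAK, read 51.4 and 115 (2.24-fold higher). Tnfrsf1b, a receptor for tumour necrosis factor, read 112 and 44.0 (2.55-fold lower). The next largest differences were of the receptor genes Tnfrsf25 (-0.58) and Tnfrsf10b (-0.40) and the adaptor gene Traf2 (-0.36). Fas, Fasl and Tnf were below the floor on both arrays.

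**Figure D4:**
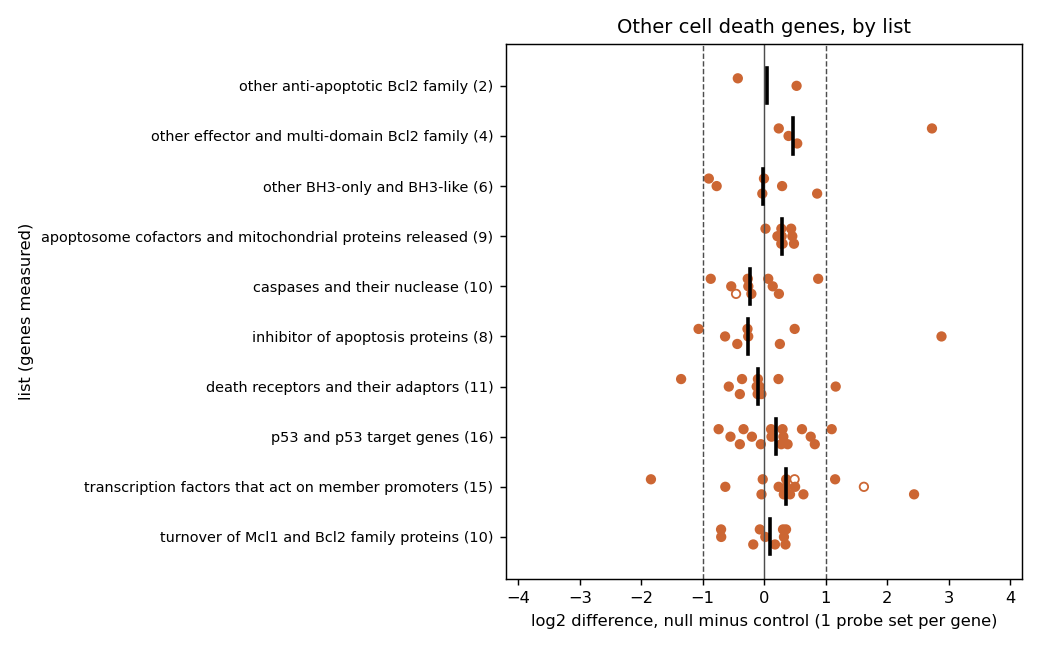
Log2 difference, null minus control, of each measured gene (points, open where 1 array was below the floor) in 10 lists of cell death genes, with the list median as a black bar and 2-fold dashed. Most genes lie within 2-fold, and the farthest points are Bcl2l15 (2.73), Birc5 (2.88) and Stat5a (2.44).

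The genes upstream of the members were mixed. Of 16 measured p53 pathway genes only Cdkn1a, a cell cycle inhibitor, reached 2-fold, at 50.8 and 109 (log2 1.10), with its second probe set at a bound of 1.83. Phlda3 stood at 0.82, Sesn2 at 0.76 and Trp53inp1 at -0.74, and the list median was 0.20. Of 15 measured transcription factors that can act on member promoters, 3 passed 2-fold upwards and 1 downwards (median 0.36). Stat5a read 132 and 713 (5.42-fold higher), with its second probe set at 1.95. Stat5b read 204 and 452 (2.22-fold higher), but its second probe set was at 0.13. Rel, an NF-kappa B subunit, read 222 and 61.8 (3.59-fold lower). Foxo3 stood at 0.64, Stat3 at -0.63 and Ddit3 at 0.50. E2f2, chosen after its values were seen, was below the floor in the control (18.6) and read 65.0 in the null, at least 3.08-fold higher, with its second probe set at a bound of 0.32. E2f1, also chosen afterwards, read 9.53 and 29.7 at 1431875_a_at, a bound of at least 1.41-fold. Its probe sets 1417878_at and 1447840_x_at were below the floor on both arrays. E2F1 is known to activate Apaf1, but its part in the Apaf1 signal was not tested.

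Genes that control the turnover of Mcl1 and other family proteins showed none past 2-fold among 10 measured, with a median of 0.10. The ubiquitin ligase gene Fbxw7 stood at -0.70 at both of its probe sets (355 to 218 at the brighter). Usp9x, a deubiquitinase that stabilises Mcl1, also stood at -0.70, with 5 probe sets between -0.85 and -0.53. Tmbim6, an inhibitor of Bax-induced death, stood at 0.35.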

How the data were processed

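The authors deposited 1 signal intensity (linear, not log) for each probe set and array. The submitters' processing notes name MAS5 and Affymetrix Expression Console, version 1. MAS5 scales each array, so a difference in total RNA per cell is hidden. Detection calls and scanner files were not used here, and no build is named for the probe sets. Genes were named from the platform annotation, and probe sets with several genes (932) were left unnamed.

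Intensities were taken to log2 with Python 3.11.15 and pandas 2.3.3. Values below the 50th percentile were set to it, a probe set below it on both arrays was not compared, and a fold against an array below it is a bound. The threshold was 2-fold. The steps were tested on simulated data with large known differences in bright probe sets. That test does not cover dim probe sets or differences near 2-fold. Each gene was read at its brightest probe set (mean log2 over both arrays). With 1 array per genotype there was no test, and this number sets the precision.

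The members, the 10 gene lists and the 10 marker lists were chosen with earlier results of these data known. All members were named, as were the list genes past 2-fold above the floor on both arrays and up to 3 others per list with the largest differences above the floor on both arrays. Alternatives were 4 scalings (array medians, quantile, loess with a span of 0.3, spike-in controls), floors at the 33rd and 67th percentile, a pseudocount of 16 without a floor, and thresholds of 1.5-fold and 3-fold. Others left out probe sets with a bound or of shared or alternative sequence, or took the median over probe sets. Some genes of the lists are not reported here.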

Additional observations from a re-analysis of the deposited data

How the results depend on the processing

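Of the member genes, Apaf1, Bcl2, Bcl2l1, Bak1, Bcl2l11, Bbc3 and Pmaip1 kept their sign under all 10 other settings and Mcl1 under 8 of 10. A floor or pseudocount cannot turn the sign of a probe set. For Bak1, Bbc3 and Pmaip1, with 1 measured probe set each, only the 4 scalings could have turned it. No member probe set was at least 2-fold lower under any setting or threshold. The count of member probe sets at least 2-fold higher, 3, was 1 with the floor at the 67th percentile, 5 at 1.5-fold and 1 at 3-fold, and between 2 and 4 otherwise. The lower count with the higher floor follows from its construction, since it sets more dim values equal. With that floor Bcl2 was at a bound of 0.57 and Bbc3 at a bound of 0.28. The pathway genes then gave 6 genes past 2-fold in place of 10, and all named probe sets 1392 in place of 2668. At the 33rd percentile the last count was 4287. Thresholds of 1.5-fold and 3-fold gave 24 and 5 pathway genes, and 6510 and 857 probe sets. Apaf1 was at 1.51 with the median over probe sets, which takes a bound as a value. The member median was 0.43 without shared or alternative sequence. With the spike-in controls, which were brighter on the null array by 0.30, 23.8% of all probe sets past 2-fold were higher, in place of 49.1%, and 4 pathway genes were higher and 9 lower. Without shared or alternative sequence, 4 were higher and 4 lower. No paired analysis was possible because there was 1 array per genotype. Dim probe sets limit Bcl2 most: 3 of its 5 were below the floor on both arrays.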

Other observations

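Several pathway genes, chosen after their values were seen, had probe sets that did not give 1 answer. Of the 53 members and pathway genes with several measured probe sets, 10 had log2 differences spread over more than 1 (18.9%), as had 15.6% of all 5413 such genes. Bounds entered these spreads as values, so a spread that rests on a bound need not be a disagreement. The member Apaf1 was among the 10, at 0.50 (a bound) and 2.52. Becn1, which starts autophagy and binds Bcl2, was widest. Its probe sets 1460320_at and 1455880_s_at read 3411 and 1994, and 2660.0 and 1589.9, on the control and null arrays (log2 -0.77 and -0.74), whereas 1435219_x_at read 7.80 and 77.6, a bound of 1.88. Sesn1, a p53 target, was at 0.31 by 1433711_s_at (445 and 552) and at -1.23 by 1438931_s_at (198 and 84.5). Huwe1, a ubiquitin ligase for Mcl1, was level at 1415703_at (1184 and 1126, log2 -0.07), while 1444279_at read 59.0 and 20.0, a bound of -1.48. Ywhaz, a 14-3-3 protein that holds Bad, ran from -0.45 to 0.93 over 7 probe sets. Birc6, a very large inhibitor of apoptosis protein, ran from -1.29 to 0.02 over 5. Which transcripts these probe sets read was not tested.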
